A study of Mus musculus with 20 samples.

Results

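Excitation-contraction coupling, the step by which a nerve impulse on the surface of a muscle fibre becomes a release of calcium inside it, was followed through 10 genes in mouse plantaris, a fast-contracting calf muscle. The genes were chosen by name for their role, with earlier results of these data known. They are *Cacna1s*, *Cacng1* and *Stac3* of the voltage sensor, *Ryr1* and *Trdn* of the release channel complex, the junctophilins *Jph1* and *Jph2*, the calsequestrin *Casq2*, and *Sln* and *Pln*, whose small products act on the calcium pump. All 10 were measured, each by 1 probe set, among 19505 genes. Every mouse was a female *Pax7* CreER/+; *Rosa26* DTA/+ animal aged 5 months, in which tamoxifen turns on diphtheria toxin in cells that express *Pax7*, the satellite cells that serve as muscle stem cells. Vehicle-treated muscle kept these cells (SC+) and tamoxifen-treated muscle was depleted of them (SC-). Muscles came from sham surgery or from 1, 3, 5 or 7 days of mechanical overload (MOV), for which the neighbouring calf muscles were removed in part or whole so that the plantaris took over their load. There were 2 arrays in each of the 10 groups, each array holding RNA pooled from 2 or 3 mice, so that all p-values measure the spread between pools. Since every tamoxifen-treated mouse was also depleted, loss of the cells and the drug itself cannot be told apart.

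In a resting fibre, calcium is held in the sarcoplasmic reticulum at high concentration. At the triad, where the T-tubule of the surface membrane lies against that store, depolarisation moves the voltage sensor, the sensor opens the ryanodine receptor, and the calcium that leaves starts contraction. SERCA pumps then return the calcium, and small membrane peptides such as sarcolipin and phospholamban slow these pumps. Fast fibres are known for a dense triad network and for the fast pump SERCA1, slow fibres for SERCA2 and for a share of calsequestrin 2.

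The arrays gave log2 expression values after robust multi-array average (RMA), from 2.22 to 19.93, and a value of 1 more means a doubled signal. Values of different genes come from different probes and are not compared with each other. The fast myofibre markers had a mean level of 18.77 in the first SC+ sham array, near the top of the scale. *Pax7* lay in the range of background in every array. It read 4.17 to 5.22 over the 10 SC+ arrays (median 4.83) and 3.77 to 4.70 over the 10 SC- arrays (median 4.34). In the limma fit across all time points, 3 of 5 satellite cell markers were lower in SC- (unadjusted p under 0.05), against 4.29% of all genes. Of these 5 markers, 3 had means under 6, at or near background. In sham and on the later days of MOV, 2 or 3 of the 5 were lower in SC-. On day 1 none passed (median 0.27), and the marker means were 5.34 and 5.31 in SC+ against 5.41 and 5.42 in SC-. SC+ sham replicate 2 stood apart from replicate 1. Its marker means were 9.96 against 7.62 for macrophages, 15.07 against 12.83 for fibroblasts and 11.14 against 8.65 for differentiating myoblasts. In SC- sham, replicate 2 had a slow myofibre marker mean of 14.57 against 12.75 in replicate 1, and its *Atp2a2* read 15.54 against 12.88. SC- MOV day 1 replicate 2 also stood apart in its fibroblast genes and in *Casq2*. The 10 genes were also tested without each array of the groups compared. Values of other named genes and marker counts are given with all arrays only.

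MOV lowered most of these transcripts in SC+ muscle within 1 day and raised *Casq2* and *Sln* by day 5. At a Benjamini-Hochberg adjusted p under 0.05 in limma, 8 of the 10 genes fell on day 1, against 9.03% of all genes tested. On day 3, 7 fell (9.52% of all genes), on day 5, 6 fell (7.87%) and on day 7, 6 fell (7.59%). The falls of each day include *Pln*, which was in the range of background in every array. None rose on day 1 or day 3, when 8.70% and 12.0% of all genes rose, and 2 rose on day 5 and on day 7, when 11.4% and 10.5% of all genes rose. The median log2 fold change of the 10 genes was -1.16, -1.49, -1.30 and -1.02 on days 1, 3, 5 and 7, beside -0.03, -0.06, -0.10 and -0.07 over all genes. Leaving out 1 array left 3 to 8 falls on day 1, 6 or 7 on day 3, 4 to 6 on day 5 and 3 to 6 on day 7, with 3 on days 1 and 7 without SC+ sham replicate 1, without day 1 replicate 1 or without day 7 replicate 2. In whole muscle, fewer cells of a type and less RNA per cell cannot be told apart.

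**Figure D1:**
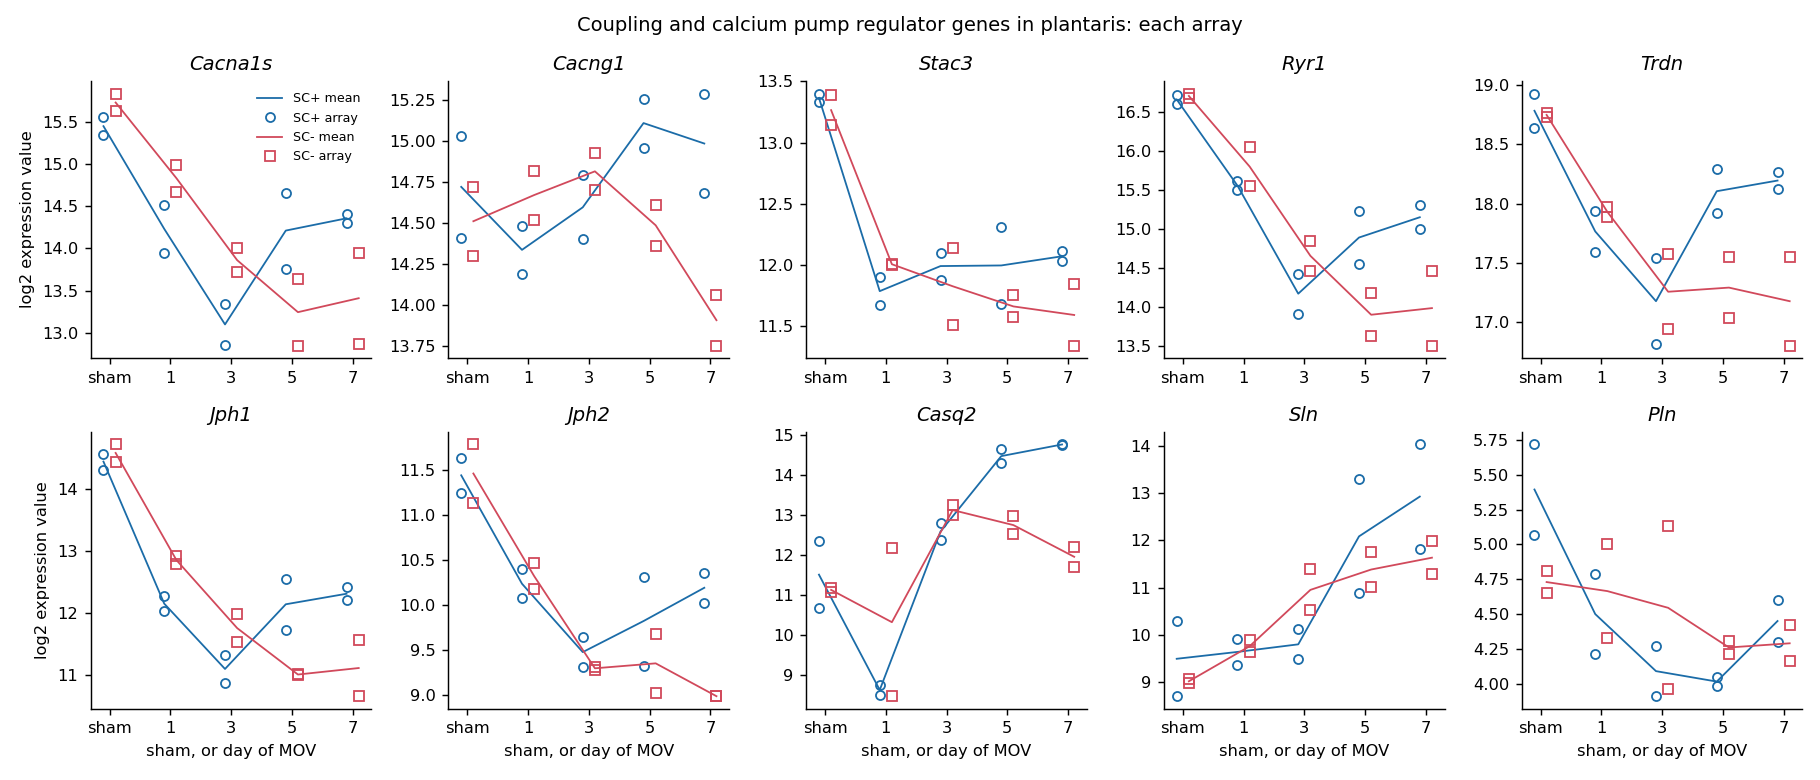
Log2 expression value (vertical axis) of each of the 10 genes in every array, by sham or day of MOV (horizontal axis). Circles are SC+ arrays, squares are SC- arrays, and lines join the means of 2 arrays. *Jph1* and *Ryr1* lie lowest on day 3 in SC+ and stay low through day 7 in SC-, while *Casq2* in SC+ falls to 8.50 and 8.77 on day 1 and reaches 14.75 and 14.76 on day 7.

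The RefSeq table of promoters (build GRCm38.p6) held 5 of the 10 genes, *Ryr1*, *Cacna1s*, *Jph2*, *Casq2* and *Pln*. Shown are the 250 bases before the start of 3 genes that fell together and of *Casq2*, which rose, 5′ to 3′ along each gene. Capitals mark E-boxes (CANNTG, the motif bound by MyoD and related factors) and MEF2 sites, searched on both strands. The windows are chr1:136052561-136052810 on the + strand, chr7:29125152-29125401 on the - strand, chr2:163397994-163398243 on the - strand (the first of 2 listed starts) and chr3:102086165-102086414 on the + strand.
Cacna1s: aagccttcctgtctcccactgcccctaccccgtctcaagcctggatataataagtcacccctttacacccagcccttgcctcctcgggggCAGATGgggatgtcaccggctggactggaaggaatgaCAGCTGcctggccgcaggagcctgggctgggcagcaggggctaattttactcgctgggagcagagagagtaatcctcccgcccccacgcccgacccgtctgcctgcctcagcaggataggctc
Ryr1: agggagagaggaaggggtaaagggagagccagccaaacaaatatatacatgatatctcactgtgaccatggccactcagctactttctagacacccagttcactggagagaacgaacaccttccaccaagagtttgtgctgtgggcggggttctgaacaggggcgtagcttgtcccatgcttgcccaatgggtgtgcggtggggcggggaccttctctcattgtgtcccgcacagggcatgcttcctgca
Jph2: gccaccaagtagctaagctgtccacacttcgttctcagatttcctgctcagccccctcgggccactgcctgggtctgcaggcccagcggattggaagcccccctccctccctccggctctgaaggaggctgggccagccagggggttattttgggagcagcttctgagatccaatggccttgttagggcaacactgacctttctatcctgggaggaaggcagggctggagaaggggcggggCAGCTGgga
Casq2: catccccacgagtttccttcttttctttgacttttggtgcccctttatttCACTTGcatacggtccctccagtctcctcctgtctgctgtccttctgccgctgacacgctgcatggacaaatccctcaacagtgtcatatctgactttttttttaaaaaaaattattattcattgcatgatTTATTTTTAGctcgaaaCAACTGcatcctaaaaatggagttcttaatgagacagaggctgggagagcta
*Cacna1s* held 2 E-boxes, CAGATG starting 160 and CAGCTG starting 123 bases before the start, and *Jph2* held CAGCTG at 9 bases. *Casq2* held CACTTG at 200 and CAACTG at 52 bases and a MEF2 match, TTATTTTTAG, at 69 bases, while *Ryr1* held neither motif. Of 32851 promoter windows of this length in the table, 66.2% held an E-box and 2.92% a MEF2 match, so most windows of the genome's genes hold an E-box. These matches describe letters in the windows and do not show that a factor bound there.

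*Cacna1s* encodes the pore subunit of the voltage sensor, the dihydropyridine receptor. It read 15.55 and 15.34 in the SC+ sham arrays, 13.95 and 14.51 on day 1, 13.34 and 12.86 on day 3, 14.66 and 13.76 on day 5, and 14.30 and 14.41 on day 7. Every SC+ MOV array was below both sham arrays. The fall was deepest on day 3, at -2.35 ± 0.32 on the log2 scale (SE; 5.09-fold lower, adjusted p = 0.00029), and was -1.21 on day 1, -1.23 on day 5 and -1.09 on day 7 (adjusted p = 0.0199, 0.0171 and 0.0326). The day 3 call held without any 1 array, whereas the other days each lost theirs without SC+ sham replicate 1 (adjusted p = 0.0917, 0.0899 and 0.145). Single MOV arrays had the same effect, namely day 1 replicate 1 (-0.93, adjusted p = 0.159), day 5 replicate 2 (-0.78, adjusted p = 0.177), and day 7 replicate 1 or 2 (adjusted p = 0.136 and 0.12).

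*Cacng1*, the gamma subunit of the same channel, took another course. It read 14.41 and 15.03 in SC+ sham, 14.48 and 14.19 on day 1, 14.79 and 14.40 on day 3, 14.96 and 15.26 on day 5, and 15.29 and 14.68 on day 7. The sham arrays lay farther apart than the replicates of any MOV day, and no day passed, with log2 fold changes from -0.39 on day 1 to 0.39 on day 5 (adjusted p from 0.407 to 0.824). The 95% interval on day 3 ran from -0.76 to 0.51, which does not reach the fall of *Cacna1s* on that day.

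*Stac3* encodes an adaptor that brings the voltage sensor to the triad and couples it to the release channel. It read 13.40 and 13.33 in SC+ sham, 11.67 and 11.90 on day 1, 12.10 and 11.88 on day 3, 12.31 and 11.68 on day 5, and 12.03 and 12.11 on day 7. All 8 MOV arrays lay below both sham arrays by more than 1 unit. Unlike the channel subunit, *Stac3* was at its lowest on day 1 (-1.58 ± 0.25, 2.98-fold lower, adjusted p = 0.00108) and was still at -1.29 on day 7 (adjusted p = 0.00372). Its change from day 3 to day 7 was 0.09 (95% interval -0.45 to 0.62), and its falls passed on each day whichever array was left out.

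*Ryr1*, the ryanodine receptor through which calcium leaves the reticulum, read 16.71 and 16.60 in SC+ sham, 15.49 and 15.61 on day 1, 14.42 and 13.91 on day 3, 15.22 and 14.55 on day 5, and 15.30 and 14.99 on day 7. The groups of sham and MOV arrays did not overlap. *Ryr1* fell on every day, by 1.11 on day 1, 2.49 on day 3 (± 0.27, 5.63-fold lower, adjusted p = 9.48e-05), 1.77 on day 5 and 1.52 on day 7 on the log2 scale. The falls on days 3, 5 and 7 passed whichever array was left out, while that on day 1 (adjusted p = 0.0147) did not pass when 1 array of day 1 (replicate 1 or 2) or the first sham array was left out (adjusted p = 0.0871, 0.0535 and 0.0671).

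*Trdn* encodes triadin, which ties calsequestrin to the ryanodine receptor. It read 18.93 and 18.64 in SC+ sham, 17.59 and 17.94 on day 1, 17.54 and 16.81 on day 3, 18.29 and 17.92 on day 5, and 18.27 and 18.12 on day 7. *Trdn* was low on days 1 and 3 and nearer sham afterwards, although no MOV array reached a sham array. It fell by 1.02 on day 1 (adjusted p = 0.0246) and by 1.61 on day 3 (± 0.28, 3.04-fold lower, adjusted p = 0.00138), and did not pass on day 5 (-0.68, adjusted p = 0.118) or day 7 (-0.59, adjusted p = 0.181). The day 1 fall did not pass without the first array of day 1 or of sham (adjusted p = 0.16 and 0.128).

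The junctophilins hold the T-tubule and reticulum membranes at a fixed distance, *Jph1* mainly in skeletal muscle and *Jph2* in skeletal and cardiac muscle. *Jph1* had the largest falls of the 10 genes on days 3, 5 and 7. It read 14.58 and 14.32 in SC+ sham, 12.03 and 12.28 on day 1, 11.32 and 10.88 on day 3, 12.56 and 11.73 on day 5, and 12.42 and 12.21 on day 7. The highest MOV array was thus more than 1 unit below the lowest sham array. *Jph1* fell by 2.30 on day 1, by 3.35 on day 3 (± 0.29, 10.2-fold lower, adjusted p = 3.60e-05), by 2.31 on day 5, and fell by 2.14 on day 7 (4.40-fold lower, adjusted p = 0.000576), and passed on each day without any 1 array.

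*Jph2* read 11.64 and 11.25 in SC+ sham, 10.08 and 10.40 on day 1, 9.65 and 9.31 on day 3, 10.32 and 9.33 on day 5, and 10.36 and 10.03 on day 7. Its lowest arrays were those of day 3 and 1 array of day 5, and MOV and sham did not overlap. The fall was 1.20 on day 1, 1.97 on day 3 (± 0.32, 3.91-fold lower, adjusted p = 0.000911), 1.62 on day 5 and 1.25 on day 7. *Jph2* kept its call on day 3 without any 1 array. It lost it on day 1 without either day 1 array (adjusted p = 0.137 and 0.0519) or sham replicate 1 (adjusted p = 0.121), on day 5 without day 5 replicate 2 (adjusted p = 0.0529), and on day 7 without either day 7 replicate 2 (adjusted p = 0.139) or sham replicate 1 (adjusted p = 0.116).

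Calsequestrin binds calcium inside the reticulum, and *Casq2* is its cardiac and slow-fibre form. *Casq2* read 10.68 and 12.34 in SC+ sham, 8.77 and 8.50 on day 1, 12.80 and 12.37 on day 3, 14.63 and 14.30 on day 5, and 14.75 and 14.76 on day 7. It thus fell first and rose after, and from day 3 on every MOV array was above both sham arrays. *Casq2* fell by 2.88 ± 0.42 on day 1 (7.35-fold lower, adjusted p = 0.000627), and rose by 2.96 on day 5 (7.76-fold, adjusted p = 0.000697) and by 3.24 on day 7 (9.47-fold, adjusted p = 0.000479). The day 3 value of 1.07 did not pass (adjusted p = 0.0935). It was 1.91 without SC+ sham replicate 2, the array with more macrophage, fibroblast and differentiating myoblast signal. The size of the other changes depended on the sham arrays, although each kept its call. Without sham replicate 2, *Casq2* was at -2.05, 3.79 and 4.08 on days 1, 5 and 7, and without sham replicate 1 at -3.71, 2.12 and 2.41.

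*Casq1*, the fast-fibre calsequestrin, read 19.39 and 19.17 in SC+ sham, 17.53 and 17.86 on day 1, 17.22 and 16.98 on day 3, 18.73 and 18.22 on day 5, and 19.00 and 18.83 on day 7. It fell by 1.59 on day 1, 2.18 on day 3 and 0.80 on day 5 (adjusted p = 0.00102, 0.000108 and 0.0393) and was at -0.36 on day 7 (adjusted p = 0.368). On days 5 and 7 the *Casq2* arrays were therefore above sham while the *Casq1* arrays were below both sham arrays. The sham level of *Casq1* is close to the top of the scale, where a difference can be understated.

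*Sln* encodes sarcolipin, a short peptide that binds SERCA and slows calcium uptake. It read 8.71 and 10.29 in SC+ sham, 9.37 and 9.92 on day 1, 10.12 and 9.49 on day 3, 10.88 and 13.29 on day 5, and 14.03 and 11.82 on day 7. Its arrays overlapped sham on days 1 and 3 and were above it on days 5 and 7, with more than 2 units between the arrays of each of those days. *Sln* rose by 2.58 ± 0.79 on day 5 (5.99-fold, adjusted p = 0.0396) and by 3.43 ± 0.79 on day 7 (10.7-fold, adjusted p = 0.011). These calls rested on single arrays. Without day 5 replicate 2 the first was 1.38 (adjusted p = 0.343) and without day 7 replicate 1 the second was 2.32 (adjusted p = 0.108), and without sham replicate 1 they were 1.79 and 2.64 (adjusted p = 0.238 and 0.0838). They passed without sham replicate 2, at 3.37 and 4.21, and without day 5 replicate 1 and day 7 replicate 2, at 3.79 and 4.53.

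*Pln*, which encodes phospholamban, the pump inhibitor of heart and slow muscle, was in the range of background in every array. It read 5.72 and 5.07 in SC+ sham, 4.21 and 4.79 on day 1, 4.27 and 3.91 on day 3, 4.05 and 3.98 on day 5, and 4.60 and 4.30 on day 7. The fits called a fall on each day, from -0.90 on day 1 (adjusted p = 0.0499) to -1.38 on day 5 (adjusted p = 0.00564), between levels at which little or no signal stands above background. No day kept its call without SC+ sham replicate 1 (adjusted p = 0.309, 0.0601, 0.0551 and 0.275 on days 1, 3, 5 and 7). Day 1 also lost it without day 1 replicate 1 (-0.60, adjusted p = 0.309), day 3 without day 3 replicate 2 (adjusted p = 0.0705), and day 7 without day 7 replicate 1 or 2 (adjusted p = 0.0766 and 0.221).

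The pumps themselves were read beside their regulators. *Atp2a1*, the fast pump SERCA1, read 19.92 or 19.93 in all 10 SC+ arrays, at the top of the scale, so that no change in it could show. *Atp2a2*, the slow-fibre and cardiac pump SERCA2, read 14.19 and 14.57 in SC+ sham and 15.92 and 15.53 on day 7, the only day on which it rose (1.34 ± 0.28, 2.54-fold, adjusted p = 0.00634). Of 8 slow myofibre markers 3 rose and 2 fell on day 7 (median 0.57), and of 12 fast myofibre markers none rose and 4 fell (median -0.46). Their part in the rises of *Casq2*, *Sln* and *Atp2a2* was not tested.

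Day 7 was also set against day 3 in SC+, a comparison that uses no sham array. At an adjusted p under 0.05, 4 of the 10 genes rose, against 2.61% of all genes, and none fell. *Cacna1s* rose by 1.25 (2.39-fold, adjusted p = 0.0473), *Jph1* by 1.21 (2.32-fold, adjusted p = 0.0384), *Casq2* by 2.17 (4.50-fold, adjusted p = 0.0135) and *Sln* by 3.12 (8.72-fold, adjusted p = 0.0484). For *Cacna1s* and *Jph1* this was toward the sham level, and for *Casq2* and *Sln* away from it. *Ryr1* and *Trdn* were at 0.97 and 1.02 without passing (adjusted p = 0.0713 and 0.0646). On day 7 *Ryr1*, *Cacna1s*, *Jph1*, *Jph2*, *Stac3* and *Pln* were still called below sham. Leaving out any 1 of the 4 arrays of days 3 and 7 left at most 1 of the 4 calls. *Cacna1s*, *Jph1* and *Casq2* lost theirs whichever of the 4 was left out, with adjusted p from 0.0895 to 0.364, from 0.0767 to 0.318 and from 0.0523 to 0.165. *Sln* lost its own without day 3 replicate 1, day 3 replicate 2 or day 7 replicate 1 (adjusted p = 0.134, 0.326 and 0.343), and its value was 2.02 and 4.23 without day 7 replicate 1 and 2.

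The other genes of the pathway were read from 7 lists holding 58 genes, of which 45 were measured, and the other 13 were not analysed here. In SC+, 22 of the 45 fell and 4 rose on day 1, 19 fell and 4 rose on day 3, 15 fell and 4 rose on day 5, and 14 fell and 5 rose on day 7, with medians of -0.80, -0.49, -0.29 and -0.17. Over all genes, 9.03%, 9.52%, 7.87% and 7.59% fell and 8.70%, 12.0%, 11.4% and 10.5% rose on these days.

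Among the other subunits and partners of the voltage sensor and release channel, 2 or 3 of 8 fell on each day, and 1 rose on days 5 and 7. Some of the 8 had SC+ sham means of only 4.09 to 6.06, at or near background, where a fall can hardly show. *Cacnb1*, the beta subunit of the sensor, fell by 2.34 on day 1 and by 1.55 on day 3 and did not pass on day 5 (-0.86, adjusted p = 0.0509) or day 7. *Cacna2d1*, its alpha2-delta subunit, fell on every day, most on day 3 (-1.74, adjusted p = 0.000287). *Homer1*, a scaffold protein, fell on days 3, 5 and 7, by 1.63, 1.43 and 1.59.

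Of 13 other genes of the triad and T-tubule, 4, 4, 3 and 2 fell and 3, 1, 0 and 0 rose on days 1, 3, 5 and 7. *Tmem38a*, a potassium channel of the reticulum that balances charge during release, fell by 3.24 on day 3 (9.44-fold lower), and *Ank1*, whose short form links reticulum to myofibrils, by 3.03 on day 1 (8.16-fold lower). *Dysf*, a membrane repair protein, rose by 2.50 on day 1 and by 1.21 on day 3, and *Cav3*, the muscle caveolin, and *Tmem38b*, a second potassium channel of the reticulum, rose by 1.41 and 1.28 on day 1 and are named here after their values were seen.

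In the lumen of the reticulum, *Hrc*, a calcium binding partner of triadin, fell by 3.38 on day 3 (10.4-fold lower, adjusted p = 3.60e-05) and was still down by 1.30 on day 7. *Calr*, calreticulin, a calcium binding chaperone made in most cell types, rose on every day, by 3.36 on day 3 (10.3-fold). In the cytosol *Pvalb*, parvalbumin, the buffer of the fastest fibres, fell by 4.13 on day 3 (17.5-fold lower) and by 1.27 on day 7, and *S100a1* fell by 2.44 on day 3, whereas the calmodulin gene *Calm2* fell on day 1 and rose by 1.03 on day 7. Of the genes for entry and other routes, *Stim1*, the store sensor, fell by 2.17 and *Slc8a3*, a sodium-calcium exchanger, by 2.08 on day 3, and *Itpr2*, an inositol trisphosphate receptor, rose by 1.06 on day 7. Of 5 genes of surface excitability 4 or 5 fell on each day. *Clcn1*, the chloride channel that steadies the resting membrane, fell by 3.58 on day 3 (11.9-fold lower), the potassium channel *Kcnj2* by 2.76, and the sodium pump subunit *Atp1b1* by 2.45 on day 1.

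**Figure D2:**
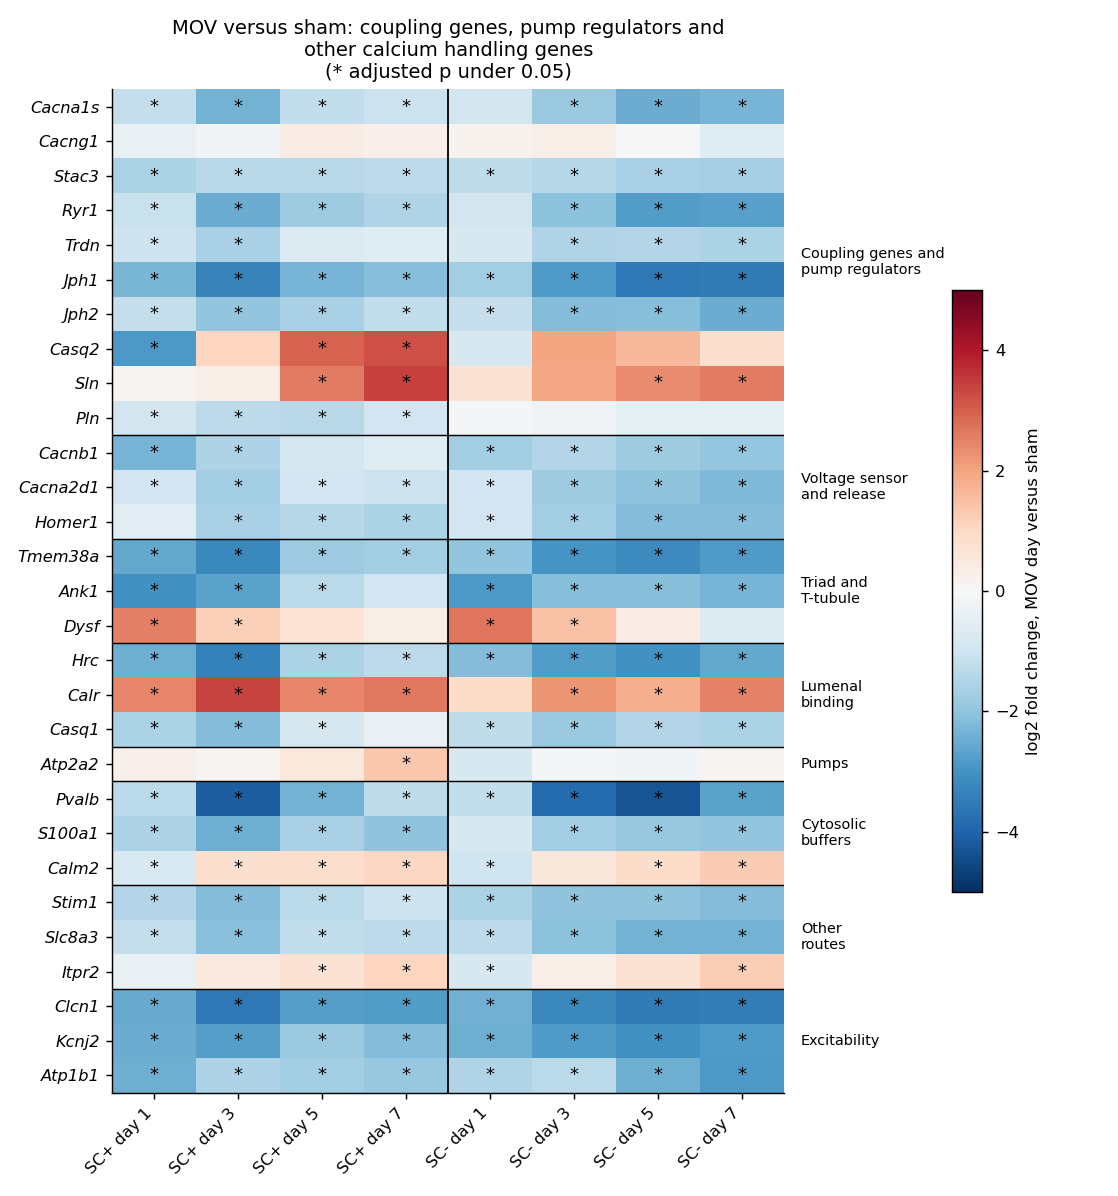
Log2 fold change of MOV against sham (colour) for the 10 genes and for the named genes of 7 calcium handling lists (rows) on each day in SC+ and SC- (columns), with asterisks at an adjusted p under 0.05. The list genes shown were chosen for the size of their SC+ change, so their colours do not stand for the lists. *Casq2*, *Sln*, *Dysf*, *Calr*, *Atp2a2*, *Calm2* and *Itpr2* hold red cells that passed in SC+ on at least 1 day.

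Fast myofibre markers also fell, in 4, 6, 6 and 4 of 12 genes on days 1, 3, 5 and 7 in SC+ (median -0.71, -0.99, -0.59 and -0.46), while 8 of 8 macrophage markers rose on day 3 (median 3.91). The log2 of the summed macrophage signal ran from 11.42 to 14.69 in SC+ sham and from 17.44 to 17.59 on day 3. Of the 12 fast markers, 5 had a mean of 19 or more, close to the top of the scale, so their own fall can be understated. With each array centred on these 12 genes, 3, 4, 3 and 2 of the 10 genes fell on days 1, 3, 5 and 7 in SC+, against 2.53%, 2.18%, 1.91% and 2.17% of all genes. This scale set the median of all genes to 0.73, 1.19, 0.69 and 0.61, and 42.4%, 83.0%, 39.5% and 30.1% of all genes rose on it. *Jph1* was among them on every day, at -1.54, -2.10, -1.52 and -1.46 (adjusted p = 0.00084, 2.12e-05, 0.000716 and 0.00124). *Ryr1* passed on days 3, 5 and 7 (-1.25, -0.99 and -0.85) and *Jph2* on days 3 and 5 (-0.72 and -0.83), whereas *Cacna1s* passed only on day 3 (-1.10) and *Stac3* only on day 1 (-0.83). *Trdn* did not pass on any day and turned to 0.11 and 0.08 on days 5 and 7, and *Cacng1* was at 1.12, 1.18 and 0.93 on days 3, 5 and 7, near or above those medians. *Casq2* fell on day 1 (-2.13) and rose on days 3, 5 and 7 on this scale (2.32, 3.74 and 3.92), and *Sln* rose on days 5 and 7 (3.37 and 4.10), beyond the shift of all genes. How far a change in the share of fibre RNA enters the falls was not tested beyond this.

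**Figure D3:**
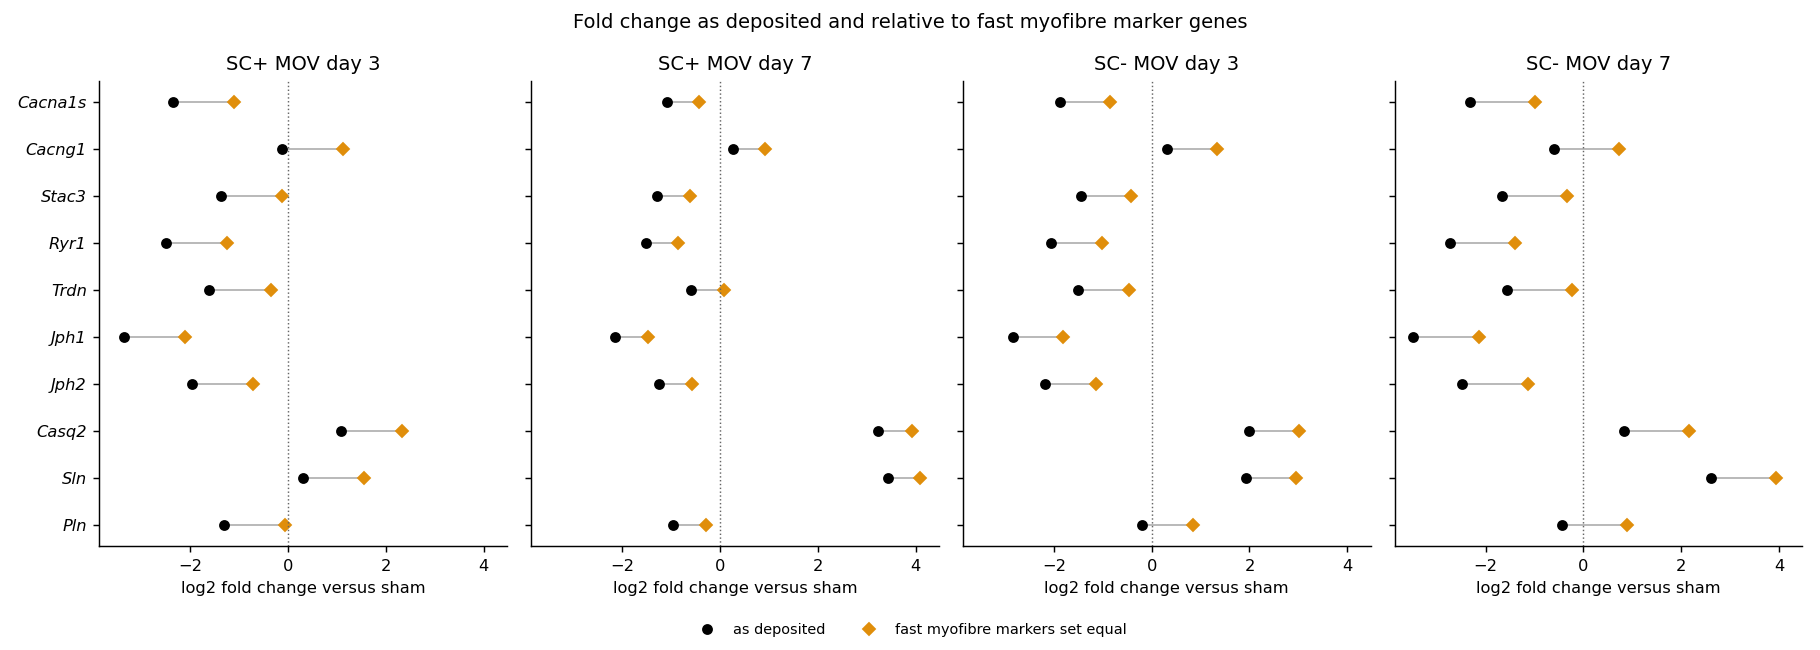
Log2 fold change against sham (horizontal axis) of the 10 genes (vertical axis) on days 3 and 7 in SC+ and SC-, as deposited (circles) and with each array centred on 12 fast myofibre marker genes (diamonds). Centring moved every gene of a panel to the right by the same amount, and *Jph1*, *Ryr1*, *Jph2* and *Cacna1s* remained left of 0 in all 4 panels.

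Of the 7 genes that fell in SC+ on day 3, all but *Pln* also fell in SC-, and their SC- arrays were low through day 7. On day 1, 3 of the 10 genes fell (*Jph1*, *Jph2* and *Stac3*), against 7.62% of all genes, and none rose (6.80% of all genes). On days 3, 5 and 7, 6 fell (*Ryr1*, *Cacna1s*, *Trdn*, *Jph1*, *Jph2* and *Stac3*), against 9.57%, 13.0% and 13.6% of all genes. None rose on day 3, and *Sln* alone rose on days 5 and 7, when 11.7%, 14.9% and 15.0% of all genes rose. The median log2 fold change of the 10 genes was -0.86, -1.47, -1.53 and -1.62 on days 1, 3, 5 and 7, beside -0.01, -0.06, -0.10 and -0.09 over all genes, and the 6 falls of days 3, 5 and 7 passed whichever array was left out. On day 1 *Jph2* did not pass without the first array of day 1 (adjusted p = 0.152) or of sham (adjusted p = 0.211).

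*Jph1* in SC- read 14.73 and 14.45 in sham, 12.93 and 12.79 on day 1, 11.54 and 11.98 on day 3, 11.00 and 11.02 on day 5, and 10.66 and 11.57 on day 7. It was 7.10-fold lower than sham on day 3, 12.0-fold lower on day 5 and 11.1-fold lower on day 7 (adjusted p = 4.82e-06, 4.05e-07 and 2.92e-07). *Ryr1* read 16.73 and 16.67 in SC- sham, 15.54 and 16.05 on day 1, 14.46 and 14.84 on day 3, 14.17 and 13.62 on day 5, and 13.50 and 14.46 on day 7. Both genes were lowest in SC- on days 5 and 7, and *Ryr1* was 6.97-fold and 6.59-fold lower than sham on those days.

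*Casq2* read 11.18 and 11.08 in SC- sham, 8.48 and 12.17 on day 1, 13.00 and 13.24 on day 3, 12.96 and 12.53 on day 5, and 11.71 and 12.20 on day 7. The SC- day 1 arrays lay on either side of sham, and no day passed, at -0.81, 1.99, 1.62 and 0.83 (adjusted p = 0.545, 0.0548, 0.106 and 0.446). From day 3 on, however, every SC- MOV array of *Casq2* was above both sham arrays. The SE was 0.71 on each day, against 0.42 in the SC+ fit. It was pooled over all groups, including the SC- day 1 pair (SD 2.61). Days 3, 5 and 7 were not tested without day 1 replicate 2, so these tests do not show that *Casq2* stayed at its sham level. Without day 1 replicate 2, *Casq2* fell on day 1 by 2.65 (adjusted p = 0.00092). *Sln* in SC- read 9.07 and 8.98 in sham, 9.89 and 9.64 on day 1, 11.39 and 10.52 on day 3, 11.75 and 11.02 on day 5, and 11.98 and 11.29 on day 7. Every SC- MOV array of *Sln* was above both sham arrays, and it rose by 2.36 on day 5 (5.14-fold, adjusted p = 0.0135) and by 2.61 on day 7 (6.08-fold, adjusted p = 0.00667). The day 5 call was lost without day 5 replicate 1 (adjusted p = 0.113) or either sham array (adjusted p = 0.055 and 0.0622), and that of day 7 without day 7 replicate 1 (2.26, adjusted p = 0.0744). Between day 3 and day 7 none of the 10 genes changed in SC-, against 5.72% of all genes in either direction, and *Cacng1* came nearest (-0.91, adjusted p = 0.0624).

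SC- muscle was then set against SC+ muscle at each time point. These comparisons were read at an unadjusted p under 0.05 in limma, the threshold of the study's methods. None of the 10 genes passed after adjustment at any time point. They do not test whether the response to MOV differed, which is taken up further below. In sham muscle none of the 10 passed the unadjusted threshold, against 5.58% of all genes in either direction, with differences from -0.67 (*Pln*) to 0.28 (*Cacna1s*). On day 1, *Jph1* was higher in SC- by 0.71 and *Casq2* by 1.69 (2.94% of all genes higher), and on day 3 *Cacna1s* was higher by 0.76 and *Jph1* by 0.66 (2.79% of all genes higher). The 4 adjusted p ran from 0.797 to 0.916. The day 1 difference of *Casq2* came from 1 array and was -0.15 without SC- MOV day 1 replicate 2 and 3.54 without replicate 1. Each of these 4 differences missed the threshold without at least 2 of its arrays. For *Jph1* these were SC- day 1 replicate 1 or 2 or SC+ day 1 replicate 1 (0.64, 0.77 and 0.58), and SC- or SC+ day 3 replicate 2 (0.44 in both). For *Cacna1s* they were SC- day 3 replicate 1 or 2 and SC+ day 3 replicate 2 (0.90, 0.62 and 0.52), and for *Casq2* also either SC+ day 1 array (1.83 and 1.56).

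On days 5 and 7, all differences that passed were lower in SC-. On day 5, 6 of the 10 genes were lower in SC- (*Ryr1*, *Cacna1s*, *Cacng1*, *Trdn*, *Jph1* and *Casq2*), against 4.73% of all genes, and on day 7 the same 6 and *Jph2* were lower, against 5.91% of all genes. None was higher on either day, when 4.47% and 6.20% of all genes were. In those 6 genes on day 5, and in those 7 and *Stac3* on day 7, both SC- arrays lay below both SC+ arrays, as they did for 19.4% and 23.0% of all genes. The SC- arrays lay above both SC+ arrays for *Pln* on day 5 (19.6% of all genes), for 4 genes on day 1 (17.2%) and for 5 on day 3 (19.5%). The median difference of the 10 genes was -0.75 on day 5 and -1.12 on day 7, beside -0.01 over all genes on day 7. After adjustment 1 gene of all 19505 passed on day 5 and 56 passed on day 7.

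*Jph1* was lower in SC- by 1.14 ± 0.31 on day 5 (adjusted p = 0.264) and by 1.20 ± 0.31 on day 7 (2.30-fold, adjusted p = 0.0956), and *Ryr1* by 0.99 and 1.16 (1.99-fold and 2.24-fold, adjusted p = 0.331 and 0.125). *Cacng1*, which had not passed against sham in either SC+ or SC-, read 15.29 and 14.68 in SC+ and 13.75 and 14.06 in SC- on day 7, a difference of -1.08 ± 0.28 (2.11-fold lower, adjusted p = 0.0988). The voltage sensor gene *Cacna1s* differed by -0.96 and -0.94 on days 5 and 7 (adjusted p = 0.396 and 0.281) and the triadin gene *Trdn* by -0.81 and -1.01 (adjusted p = 0.402 and 0.158). *Jph2* read 10.36 and 10.03 in SC+ and 8.99 in both SC- arrays on day 7, 2.31-fold lower (adjusted p = 0.108), and on day 5 it differed by -0.47 without passing. *Casq2* had the largest difference of the 10 on both days, with 14.75 and 14.76 in SC+ against 11.71 and 12.20 in SC- on day 7 (-2.80 ± 0.71, 6.95-fold lower, adjusted p = 0.0956) and -1.72 on day 5 (adjusted p = 0.458).

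The remaining 3 genes did not pass on either day. *Stac3* stood at -0.34 on day 5 and -0.48 on day 7 (95% interval -1.03 to 0.07), *Sln* at -0.70 and -1.30 (-2.73 to 0.14 on day 7) and *Pln*, near background, at 0.24 and -0.16. These intervals leave room for differences of the size seen in *Jph1* for *Sln*, but not for *Stac3* beyond -1.03.

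Single arrays carried part of these differences. Without SC- day 7 replicate 1, the lower array for most of the 10 genes, the day 7 values were -0.68 for *Ryr1*, -0.40 for *Cacna1s*, -0.64 for *Trdn* and -0.74 for *Jph1*, and all but *Jph1* missed the threshold. *Cacna1s* on day 7 also missed it without SC+ day 7 replicate 2 (-0.89), and was -1.49 without SC- day 7 replicate 2. On day 5, without SC+ day 5 replicate 1, *Ryr1* (-0.65), *Cacna1s* (-0.51), *Trdn* (-0.62), *Jph1* (-0.73) and *Casq2* (-1.55) missed it. Without SC- day 5 replicate 2, *Ryr1* (-0.71), *Cacna1s* (-0.57), *Cacng1* (-0.50), *Trdn* (-0.55) and *Casq2* (-1.51) did, and without SC+ day 5 replicate 2, *Cacng1* (-0.47) and *Casq2* (-1.89) did. *Cacng1*, *Jph1*, *Jph2* and *Casq2* were lower in SC- on day 7 whichever array was left out.

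**Figure D4:**
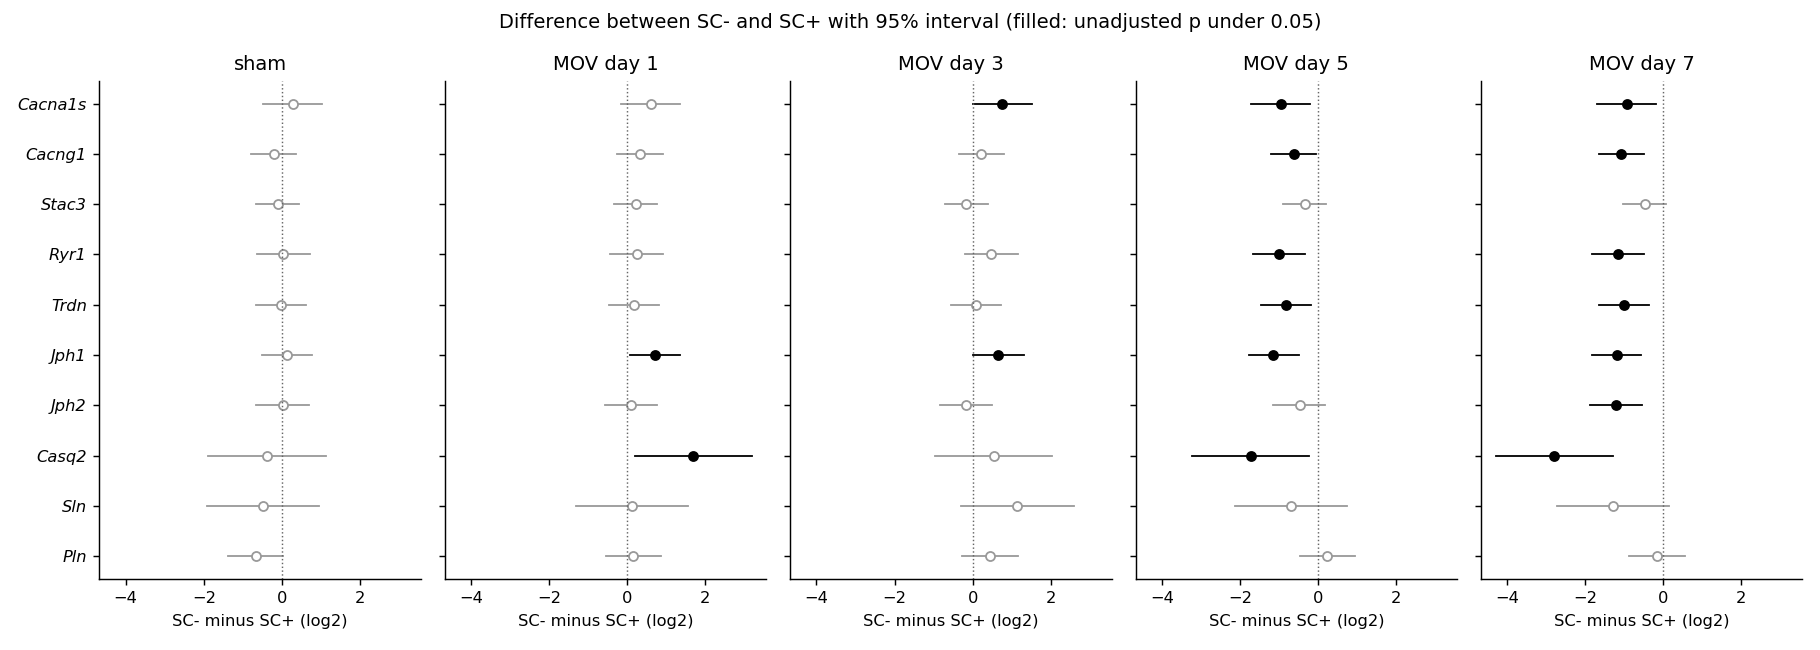
SC- minus SC+ in log2 units (horizontal axis) for the 10 genes (vertical axis) in sham and on each day of MOV, with 95% intervals from limma. Filled points passed an unadjusted p under 0.05. The points of day 3 lie mostly right of 0 and those of day 7 left of 0, with *Casq2* lowest at -2.80 on day 7.

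Marker genes of other kinds moved with these differences. On day 7, 6 of 12 fast myofibre markers (median -0.61) and 5 of 8 slow myofibre markers (median -1.07) were lower in SC-, as were 4 of 6 markers of differentiating myoblasts (median -1.84) and 3 of 5 satellite cell markers (median -1.21). Higher in SC- on day 7 were 4 of 5 neutrophil markers (median 1.37), 2 of 8 macrophage markers (1.01), 3 of 6 smooth muscle and pericyte markers (0.90) and 2 of 4 endothelial markers (0.49), while none of 4 fibroblast markers passed (0.31). On day 5, 4 of 4 endothelial markers (median 0.77), 3 of 8 macrophage markers (1.10) and 1 of 5 neutrophil markers (0.59) were higher, and 4 of 6 myoblast markers (-1.32), 3 of 5 satellite cell markers (-0.66), 3 of 8 slow (-0.48) and 6 of 12 fast myofibre markers (-0.63) were lower. The log2 of the summed macrophage signal ran from 16.06 to 16.42 in SC+ and from 17.30 to 17.68 in SC- on day 7. With arrays centred on the fast myofibre markers, 1 of the 10 genes was lower in SC- on day 5 (*Jph1*, -0.62), against 0.297% of all genes, and 1 on day 7 (*Casq2*, -2.18), against 0.472%. The median of all genes was then 0.51 and 0.61. On day 5 *Pln* was higher (0.76), as were 27.7% of all genes, and on day 7 *Jph1*, *Ryr1* and *Cacng1* stood at -0.58, -0.54 and -0.46 and did not pass. The part of these cell types in the differences was not tested further.

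Among the other 45 calcium handling genes, 11 were lower in SC- on day 5 and 18 on day 7, against 4.73% and 5.91% of all genes. None was higher on either day, when 4.47% and 6.20% of all genes were. *Pvalb* differed by -1.68 on day 5 and -1.16 on day 7, *Hrc* by -1.47 and -1.32, *Tmem38a* by -1.40 and -1.12, *Ank1* by -1.18 and -1.75 and *Cacnb1* by -0.84 and -1.26, each at an unadjusted p under 0.05 (adjusted p from 0.0776 to 0.394). *Atp2a2* was lower in SC- by 1.36 on day 7 (adjusted p = 0.281), and *Casq1* by 1.12 (adjusted p = 0.0945). *Calr*, *Calm2* and *Itpr2*, which had risen with MOV in SC+, stood at 0.43, 0.29 and 0.19 on day 7 and did not pass.

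Taking each group against its own sham gives the test of whether the responses themselves differed. On day 1 none of the 10 genes passed an unadjusted p under 0.05 (4.93% of all genes in either direction), and on day 3 *Pln* alone was higher (1.12; 2.08% of all genes higher). On day 5 the response was lower in SC- for 3 genes (*Ryr1*, -1.03; *Cacna1s*, -1.25; *Jph1*, -1.28), against 3.91% of all genes. On day 7 it was lower for 7 (*Ryr1*, -1.20; *Cacna1s*, -1.23; *Cacng1*, -0.87; *Trdn*, -0.98; *Jph1*, -1.34; *Jph2*, -1.23; *Casq2*, -2.42), against 4.82% of all genes. No gene of the 19505 passed an adjusted p under 0.05 in any of the 4 comparisons, and the adjusted p of these 11 ran from 0.355 to 1. Leaving out 1 array left 0 to 4 of the 10 genes on day 5 and 1 to 7 on day 7. On day 5 none passed without SC+ day 5 replicate 1, and 1 passed without SC- day 5 replicate 2, SC- sham replicate 1 or SC+ sham replicate 2. On day 7, 1 passed without SC- day 7 replicate 1, 2 without SC+ day 7 replicate 1, 3 without SC- sham replicate 1 and 4 without SC+ sham replicate 2. *Casq2* was at -1.59 without SC+ sham replicate 1 and did not pass, and at -3.25 without SC+ sham replicate 2. Over all time points, sham included, only *Jph2* was lower in SC- (-0.35 ± 0.16, adjusted p = 0.569; 4.29% of all genes), and it did not pass without any 1 of 13 of the 20 arrays.

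Across the 20 arrays, where every gene is read from the same RNA pools of 10 groups, *Ryr1*, *Cacna1s*, *Trdn*, *Jph1*, *Jph2* and *Stac3* had pairwise Pearson correlations from 0.845 to 0.968, given as a description. *Cacng1* correlated with *Casq2* at 0.551 and with *Ryr1* at 0.231, and *Casq2* with *Sln* at 0.66. The gene outside the 10 whose values were most like those of *Ryr1* was *Ckm*, the muscle creatine kinase (0.982), and for *Cacna1s* it was *Myoz1*, a Z-disc protein of fast fibres (0.968). For *Jph1* it was *Slc25a12*, a mitochondrial aspartate-glutamate carrier (0.987), for *Jph2* *Idh3a*, a subunit of a citric acid cycle enzyme (0.963), and for *Trdn* *Ndufs5*, a subunit of respiratory complex I (0.956). The closest to *Stac3* was *Narf* (0.963), to *Casq2* *Prepl* (0.93), to *Sln* *Stard13* (0.893), to *Cacng1* *Agpat3* (0.884) and to *Pln* *Tmcc2* (0.826).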

How the data were processed

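Biotin-labelled total RNA from plantaris muscle was hybridised to Affymetrix mouse arrays, 20 in all, 2 per group of 10 groups. The authors deposited log2 values normalised by RMA per the labels. The sources used here leave the array type unsettled, and the number of arrays limits the precision. RMA sets the distributions of all arrays equal, so a change in the share of fibre RNA can move the values of fibre genes. How far it did so here was not tested. Of 28846 rows, 9274 named no gene; for the 55 genes with several probe sets the one with the highest mean was kept, giving 19505 genes. Groups came from the sample labels. Linear models were fitted in limma 3.58.1 (R 4.3.3) on all genes, on the 10 SC+ arrays (residual degrees of freedom 5, prior 6.76) or on all 20 arrays (10 and 8.16), with Benjamini-Hochberg adjustment over 19505 genes. The 10 genes and all lists were chosen with earlier results of these data known. Named besides the 10 were *Casq1*, *Atp2a1*, *Atp2a2*, up to 3 genes of each pathway list with the largest SC+ change past the threshold, and for each of the 10 the gene of most similar values. The scripts were tested on simulated data. Alternatives covered the replicate block, low values, all rows, 2 centrings, other prior settings, a 2-fold limit, the arrays in the fit and leaving out each array.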

Additional observations from a re-analysis of the deposited data

Results flagged for a closer look

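The response to MOV, taken against each group's own sham, differed between SC- and SC+ at an unadjusted p under 0.05 in 11 cases among the 10 genes, and none of the 11 passed after adjustment over all genes in limma. On day 7 the response of *Casq2* was lower in SC-, at -2.42 on the log2 scale (adjusted p = 0.475), that of *Jph1* at -1.34 (adjusted p = 0.355), of *Jph2* at -1.23 (adjusted p = 0.402), of *Cacna1s* at -1.23 (adjusted p = 0.471), of *Ryr1* at -1.20 (adjusted p = 0.417), of *Trdn* at -0.98 (adjusted p = 0.493) and of *Cacng1* at -0.87 (adjusted p = 0.512). On day 5 *Jph1* stood at -1.28 (adjusted p = 0.576), *Cacna1s* at -1.25 (adjusted p = 0.596) and *Ryr1* at -1.03 (adjusted p = 0.604). On day 3 *Pln*, in the range of background, stood at 1.12 (adjusted p = 1).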

How the results depend on the processing

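Counts among the members moved as follows. With arrays centred on fast myofibre markers, the members that fell in SC+ were 3, 4, 3 and 2 on days 1, 3, 5 and 7 and 1 in SC- on day 1, those that rose were 2 on day 3 and 2 from day 3 to day 7 in SC+ (83.0% and 1.20% of all genes) and 4, 4 and 4 on days 3, 5 and 7 in SC- (65.3%, 81.8% and 81.1% of all genes). Between SC- and SC+ on this scale, 1 was higher on day 1 (0.369% of all genes) and 0 on day 3 (0.318%). On day 5, 1 was lower (0.297%) and 1 higher (27.7%), and on day 7, 1 was lower (0.472%). The response was higher for 0 on day 3 (0.328%). It was lower for 0 (0.113% and 0.246%) and higher for 1 (15.8% and 23.5%) on days 5 and 7. Over all time points 0 were lower (0.533%). *Cacng1* turned to 1.12 (SC+, day 3), 1.33 and 0.73 (SC-, days 5 and 7) and *Pln* to 0.84, 0.87 and 0.89 (SC-, days 3, 5 and 7), beside medians of all genes of 1.19 in SC+ on day 3 and 0.96, 1.25 and 1.24 in SC- on days 3, 5 and 7. That centring moved the share of higher genes among calls from between 45.8% and 60.9% to between 83.2% and 99.3%, or to between 4.26% and 30.7% in SC+ from day 3 to day 7, in SC- against SC+ in sham and on days 1 and 3, and in the responses of days 1 and 3, and the count of calls of all genes from 4190 to 16617 on day 3 in SC+ and from 2361 to 7799 in SC- against SC+ on day 7. With every row of the table tested, 4 members fell on day 1 and 1 rose on day 5 in SC+, 0 rose from day 3 to day 7, 1 was higher in SC- on day 1, 0 on day 3, and 0 were lower over all time points. With a trended, robust prior, 1 rose in SC+ on days 5 and 7, 0 in SC- on day 5, 1 fell in SC- from day 3 to day 7 and 1 was higher in SC- on day 1. Without genes of mean under 6, 2 rose in SC- on day 3, 1 fell in SC- from day 3 to day 7, 1 was higher in SC- on day 3, the response was higher for 0 on day 3 and 0 were lower over all time points, as with arrays centred on their median (0). With other arrays in the fit, 2 rose in SC+ from day 3 to day 7 and 1 in SC- on day 3. Without genes of mean under 6, the calls of all genes in SC- against SC+ went from 1088 to 564 in sham, from 1168 to 775 on day 1 and from 1064 to 650 on day 3, and without SC+ MOV day 7 replicate 2 those of SC+ on day 7 went from 3521 to 1579. The causes were not tested.

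The replicate block moved 7 of 200 values of members across the threshold. Replicate numbers did not pair the samples (correlations from -0.155 to 0.216, 12 of 45 pairs of groups over 0.1). With the block, 1 member rose in SC- on day 3, 0 were higher in SC- on day 3 and the response was higher for 1 on day 1.

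Without 1 array, the members that fell in SC+ numbered 3 to 8, 6 to 7, 4 to 6 and 3 to 6 on days 1, 3, 5 and 7, and those that rose 0 to 1, 1 to 2 and 1 to 2 on days 3, 5 and 7 and 0 to 1 from day 3 to day 7. In SC- 2 to 4 fell on day 1, and 0 to 1 rose on days 5 and 7. In SC- against SC+, 0 to 1 were lower in sham, 0 to 1 and 0 to 2 higher on days 1 and 3, 2 to 6 and 4 to 8 lower on days 5 and 7, and 0 to 4 lower over all time points. The response was higher for 0 to 1 on days 1, 3 and 5 and lower for 0 to 4 and 1 to 7 on days 5 and 7. *Casq2* in SC- against SC+ on day 1 was -0.15 without SC- MOV day 1 replicate 2 and 3.54 without replicate 1. Of 1120 values of members without 1 array, 965 kept their side of the threshold.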
